A study of Homo sapiens with 8 samples.

Results

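The GADD45 family comprises GADD45A, GADD45B and GADD45G, 3 genes for small stress-induced proteins of the nucleus and cytoplasm. Their transcripts were measured in 293T, a line of human kidney origin with the large T antigen of SV40. The cells were control cells or had been given EerI, CBU-028 or the compound 5-NA for 10 h at 10 µM, and each of the 4 groups had 2 arrays. EerI (Eeyarestatin I), an inhibitor of ER-associated degradation, joins a nitrofuran-containing group to an aromatic module, and 5-NA (5-nitrofuryl-acrolein) corresponds to the nitrofuran-containing group alone. CBU-028 carries the same nitrofuran-containing group, joined to a different benzene-containing group. Whether the control cells received solvent is not given in the sources used here, and the number in the title of both 5-NA samples belongs to another compound in the study's list, so every 5-NA value rests on the remaining labels of these samples. All probe sets that the platform annotation assigns to the 3 genes, of 19775 genes with a symbol of their own, were taken, which gave 6 of the 54675 probe sets of the array, 1 for GADD45A, 4 for GADD45B and 1 for GADD45G. A probe set is a group of short probes against one transcript, and its value is the log2 signal that the authors obtained with RMA, so that a difference of 1 is a 2-fold change. The values are of bulk RNA, so a larger share of responding cells and a higher level per cell cannot be told apart.

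GADD45 proteins have no known enzymatic activity and act through their partners. They bind the kinase MAP3K4 and thereby activate the p38 and JNK pathways, they interfere with the CDK1-cyclin B1 kinase that drives entry into mitosis, and they bind the replication clamp PCNA and the cell cycle inhibitor p21 (CDKN1A). GADD45A is a classical DNA damage gene that also responds to nutrient and ER stress, GADD45B is an early response gene to TGF-beta, NF-kappaB and genotoxic signals, and GADD45G is best known from cytokine responses and differentiation.

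Because the 3 genes are known for control at the level of transcription, the 250 bases before the start of transcription are shown for the members matched in the RefSeq promoter table (2 of 3, GADD45B and GADD45G). The GADD45B stretch is GRCh38.p14 chr19:2475877-2476126 and the GADD45G stretch chr9:89604762-89605011, both on the plus strand, with capitals marking each match to a searched motif.
GADD45B: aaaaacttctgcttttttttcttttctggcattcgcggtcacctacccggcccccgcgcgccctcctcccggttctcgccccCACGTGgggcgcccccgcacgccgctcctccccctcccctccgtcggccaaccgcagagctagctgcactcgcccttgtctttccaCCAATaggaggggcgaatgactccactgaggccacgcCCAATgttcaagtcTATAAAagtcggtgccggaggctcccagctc
GADD45G: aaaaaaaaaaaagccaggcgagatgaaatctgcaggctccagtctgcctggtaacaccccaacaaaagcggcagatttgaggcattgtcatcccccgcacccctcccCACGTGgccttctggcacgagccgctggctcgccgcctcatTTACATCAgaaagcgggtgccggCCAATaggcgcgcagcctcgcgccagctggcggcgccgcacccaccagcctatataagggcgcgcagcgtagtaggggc
The motifs searched on both strands were CCAAT of the CCAAT box, TGACG of CRE sites, TGATGNAA of sites for dimers of C/EBP and ATF factors, TGANTCA of AP-1 sites, GGGCGG of GC boxes and TATAAA of the TATA box, and CACGTG, the E-box palindrome, was added after the sequences had been seen. GADD45B held 2 matches to CCAAT, 82 and 45 bases before the start, and GADD45G held 1, 79 bases before the start. Such a match was present in 32% of the 35116 promoters of this length. TATAAA was found in GADD45B at 31 bases before the start (10.7% of promoters), and the reverse strand of TGATGNAA in GADD45G at 102 bases before the start (3.14% of promoters). CACGTG was found in both stretches (6.34% of promoters). The other 3 motifs had no match in either window. Only exact letters were searched, so near matches were not marked, such as the tatataag close to the end of the GADD45G stretch. These matches are letters in a window and were not tested as binding sites.

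The labelled cell type was checked against marker genes. Of 8 kidney epithelial and neuronal genes listed for 293T, 7 had a mean log2 value of at least 7, led by VIM at 13.71. That cutoff is close to the median of all probe sets, 6.89 to 6.93 on the 8 arrays, so passing it does not settle the cell type. PAX2 (6.70, below the cutoff) and LHX1 (7.24) lay near this median, and below CD79A (7.73) and PECAM1 (7.39), which were listed for other cells. Over the arrays the mean of the 293T list lay between 10.21 and 10.27 in control and between 10.14 and 10.25 in treated cells. Single genes of the 293T list were called, since the neurofilament genes NEFL and NEFM were lower with CBU-028 (-0.38 and -0.43), and with 5-NA NEFL was lower (-0.41) and KRT8 and INA were higher (0.29 and 0.31). Of the genes listed for other cells, 1 of 5 for B cells (CD79A), 1 of 5 for fibroblasts (COL1A1 at 9.15) and 1 of 4 for endothelial cells (PECAM1) reached a mean of 7, while the B cell gene PTPRC was at 4.63. None of these marker genes of other cells passed the adjusted p of limma in any comparison. The median difference between the arrays of a group was 0.0738 in control cells, 0.0809 with EerI, and larger with CBU-028, at 0.138, and with 5-NA, at 0.104.

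All 3 GADD45 genes were higher in cells treated with CBU-028 or 5-NA than in control cells, and GADD45A was higher with EerI too. The call with EerI and most calls with CBU-028 were lost by the methods' ANOVA with adjusted p. Nor did all calls with these 2 compounds hold when single arrays were left out. The largest rise was that of GADD45B with 5-NA, about 5-fold by its brightest probe set, but 1.77-fold by its probe set 213560_at. For every GADD45B and GADD45G probe set the group means ran in the order control, EerI, CBU-028, 5-NA. GADD45A departed from that order, since CBU-028 and 5-NA gave nearly equal values.

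GADD45A (probe set 203725_at) had log2 values of 10.98 and 10.99 on the control arrays and of 11.59 and 11.57 on the EerI arrays. It reached 12.53 and 12.63 with CBU-028 and 12.53 and 12.59 with 5-NA. The control arrays, the EerI arrays and the 4 arrays of CBU-028 and 5-NA formed 3 levels that did not overlap, and within the upper level both 5-NA arrays lay between the CBU-028 arrays.

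GADD45B, by its brightest probe set (207574_s_at), was at 9.05 and 8.96 in control cells, at 9.29 and 9.38 with EerI, at 9.88 and 9.93 with CBU-028, and at 11.58 and 11.20 with 5-NA. The groups stood apart from each other on this probe set, with the 5-NA arrays far above the rest. The suffix _s_at marks probes shared by several transcripts, mostly of one gene, and _x_at probes that may also match unrelated ones. The GADD45B probe set 209304_x_at had 8.57 and 8.75 in control cells, 8.97 and 8.98 with EerI, 9.46 and 9.51 with CBU-028, and 10.95 and 10.65 with 5-NA. The third, 209305_s_at, had 8.51 and 8.36 in control cells, 8.67 and 8.81 with EerI, 9.22 and 9.29 with CBU-028, and 10.85 and 10.41 with 5-NA. These 3 probe sets, which target the same gene and are not independent of each other, placed the 4 groups in the same order without overlap. On all 3 the first 5-NA array was higher than the second, by 0.29 to 0.44, while the CBU-028 arrays differed by at most 0.07.

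The remaining GADD45B probe set, 213560_at, had lower values, at 7.06 and 7.01 in control cells, 7.05 and 7.11 with EerI, 7.69 and 7.44 with CBU-028, and 7.73 and 7.99 with 5-NA. Here the EerI and control arrays overlapped, and the second 5-NA array was the higher one, in contrast to the other GADD45B probe sets. GADD45G (204121_at) was at 7.67 and 7.65 in control cells, 7.80 and 7.87 with EerI, 7.94 and 8.25 with CBU-028, and 8.26 and 8.36 with 5-NA. Its groups also stood apart, by small steps, and the lower 5-NA array was only just above the higher CBU-028 array.

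**Figure D1:**
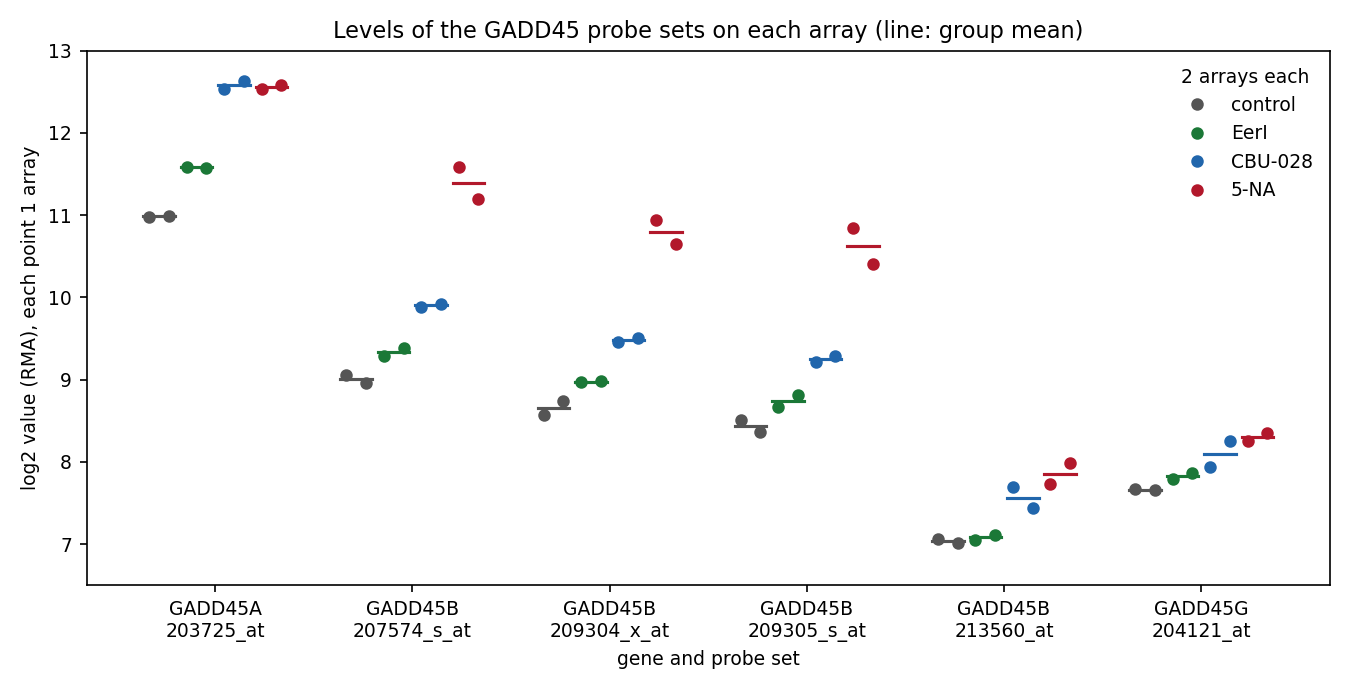
Log2 value (RMA, vertical axis) of each GADD45 probe set (horizontal axis) on each of the 8 arrays, with a point per array and a line at each group mean. GADD45A was as high with CBU-028 (mean 12.58) as with 5-NA (mean 12.56), whereas the GADD45B probe set 207574_s_at stepped from 9.90 with CBU-028 to 11.39 with 5-NA.

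How far EerI moved the family was asked by comparing it with control cells in limma, where a change was called at a Benjamini-Hochberg adjusted p under 0.05 over all probe sets. Of the 6 probe sets, 1 was higher and none lower (3 and 0 by limma's unadjusted p), while 0.357% of all probe sets were higher in this comparison. GADD45A rose by 0.60 on the log2 scale (SE 0.0783, adjusted p = 0.0151 from limma), a 1.51-fold change. The call did not hold when any of the 4 control and EerI arrays was left out, since the adjusted p from limma was then 0.167 to 0.217, although the difference stayed between 0.59 and 0.60. The GADD45B probe sets had differences of 0.33 (95% interval 0.06 to 0.61), 0.32, 0.30 and, for 213560_at, 0.05, with adjusted p from limma of 0.348 to 0.961. GADD45G had a difference of 0.17 (95% interval -0.07 to 0.42). In 5 of the 6 probe sets both EerI arrays lay above both control arrays, which held for 24.6% of all probe sets, and the median over the 6 was 0.31, against 0.01 over all probe sets.

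CBU-028 raised all 6 probe sets against control, where 4.4% of all probe sets were higher by the same rule. GADD45A rose by 1.60 (SE 0.0783, adjusted p = 1.93e-05 from limma), or 3.03-fold, and was the only probe set of the family past 2-fold here (0.254% of all probe sets were higher at 2-fold). GADD45B rose by 0.90 (SE 0.121, adjusted p = 0.00258 from limma), 0.83 and 0.82 by its 3 brighter probe sets and by 0.53 by 213560_at. GADD45G rose by 0.43 (SE 0.107, adjusted p = 0.0367 from limma), the smallest change among those called, and its 2 CBU-028 arrays differed by 0.31. The median of the 6 was 0.82, against 0.00 over all probe sets. With single arrays left out, 3 to 5 of the 6 were called (fewest without control replicate 2), and the calls for 213560_at and GADD45G were the first to be lost, with adjusted p from limma of up to 0.131 and 0.179.

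5-NA also raised all 6 probe sets, against a background of 7.32% of all probe sets higher in that comparison. The 3 brighter GADD45B probe sets rose by 2.38 (SE 0.121, adjusted p = 3.06e-05 from limma), 2.14 and 2.19, that is 5.22-, 4.41- and 4.56-fold. By size of the difference they ranked 5, 9 and 7 among the 54675 probe sets. GADD45A rose by 1.58 (SE 0.0783, adjusted p = 2.77e-05 from limma), 2.98-fold, and these 4 probe sets passed 2-fold, as did 0.483% of all probe sets in the upward direction. The probe set 213560_at rose by 0.82 (adjusted p = 0.00203 from limma) and GADD45G by 0.65 (SE 0.107, adjusted p = 0.00448 from limma). The median of the 6 was 1.86, against -0.01 over all probe sets, and all 6 stayed called in limma whichever array was left out. The 3 comparisons with control share the same 2 control arrays.

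**Figure D2:**
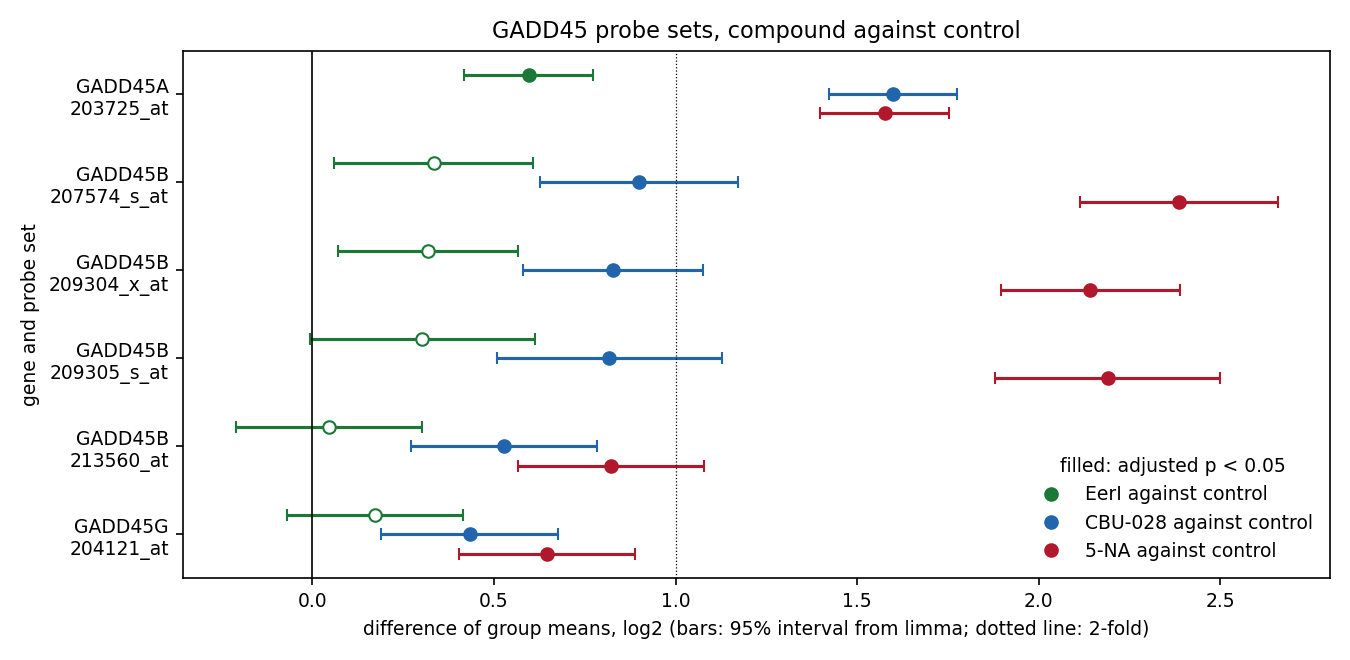
Difference from control (log2, horizontal axis) of each GADD45 probe set (vertical axis) with EerI, CBU-028 and 5-NA. Points are differences of means of 2 arrays, bars the 95% interval from limma, filled points an adjusted p under 0.05, and the dotted line 2-fold. With 5-NA the 3 brighter GADD45B probe sets lay between 2.14 and 2.38, and with EerI only GADD45A was called, at 0.60.

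Signals of ribosomal RNA moved with some of these groups, while measures of RNA quality stood out on the second 5-NA array only. Of the array's 6 control probe sets for ribosomal RNA of the small and large subunit, none was called with EerI (2 higher, 0 lower by limma's unadjusted p under 0.05), 3 were higher with CBU-028 and 4 with 5-NA. Their differences from control ran from -0.13 to 0.32 with EerI, from -0.11 to 0.98 with CBU-028 and from 0.15 to 1.39 with 5-NA. The difference of the 3' and 5' probe sets of ACTB was 0.07 to 0.20 on 7 arrays and 0.36 on the second 5-NA array. That of GAPDH was -0.11 to -0.07 on the same 7 arrays and 0.01 on the second 5-NA array. On this array the 3 brighter GADD45B probe sets were lower than on the first 5-NA array, while GADD45A, GADD45G and the GADD45B probe set 213560_at were higher. Without that array the rise of 207574_s_at was 2.58, and without the first 5-NA array 2.19. The part of RNA quality in the GADD45 values was not tested further.

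The compounds were compared directly with each other at the same dose and time, in 3 pairs, to see where the related molecules EerI and 5-NA differed and where CBU-028 stood. In the paper 5-NA was toxic to JEKO-1 lymphoma cells at a moderately lower concentration than EerI. The part of potency in the differences at this shared dose was not tested. All 6 GADD45 probe sets were higher with 5-NA, the nitrofuran-containing group alone, than with EerI, which carries the aromatic module as well, where 6.93% of all probe sets were higher. GADD45B (207574_s_at) differed by 2.05 (SE 0.121, 95% interval 1.78 to 2.32, adjusted p = 0.000103 from limma), and 209304_x_at and 209305_s_at by 1.82 and 1.89. GADD45A differed by 0.98 (SE 0.0783, 95% interval 0.80 to 1.16, adjusted p = 0.000294 from limma), 213560_at by 0.78 and GADD45G by 0.47 (adjusted p = 0.0192 from limma, and 0.061 to 0.135 without 1 of the EerI or 5-NA arrays).

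CBU-028 against EerI gave smaller differences, with 3 of 6 probe sets higher (1.28% of all probe sets). GADD45A was higher with CBU-028 by 1.002 (SE 0.0783, 95% interval 0.83 to 1.18, adjusted p = 0.00244 from limma, 0.0711 without EerI replicate 1). GADD45B differed by 0.57 (95% interval 0.29 to 0.84, adjusted p = 0.043 from limma) for 207574_s_at and by 0.51 (adjusted p = 0.0439 from limma) for 209304_x_at. These calls lay close to the threshold, and both were lost without any 1 of the control, EerI or CBU-028 arrays. The other GADD45B probe sets had differences of 0.51 and 0.48 (adjusted p = 0.0861 and 0.0601 from limma), and GADD45G one of 0.26 (95% interval 0.02 to 0.50). On all 6 probe sets both CBU-028 arrays lay above both EerI arrays, as on 21.7% of all probe sets.

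Between 5-NA and CBU-028, 3 of the 6 probe sets differed, all of GADD45B. The 3 brighter GADD45B probe sets were higher with 5-NA, by 1.49 (SE 0.121, 95% interval 1.21 to 1.76, adjusted p = 0.000594 from limma), 1.31 and 1.37, in a comparison where 5.51% of all probe sets were higher, and all 3 passed 2-fold (0.212% of all probe sets). GADD45A differed by -0.02 (SE 0.0783, adjusted p = 0.908 from limma), and the 95% interval, -0.20 to 0.15, leaves room for a difference of up to that size either way. GADD45G was at 0.21 (95% interval -0.03 to 0.46) and 213560_at at 0.29 (95% interval 0.04 to 0.55), with adjusted p from limma of 0.274 and 0.149.

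**Figure D3:**
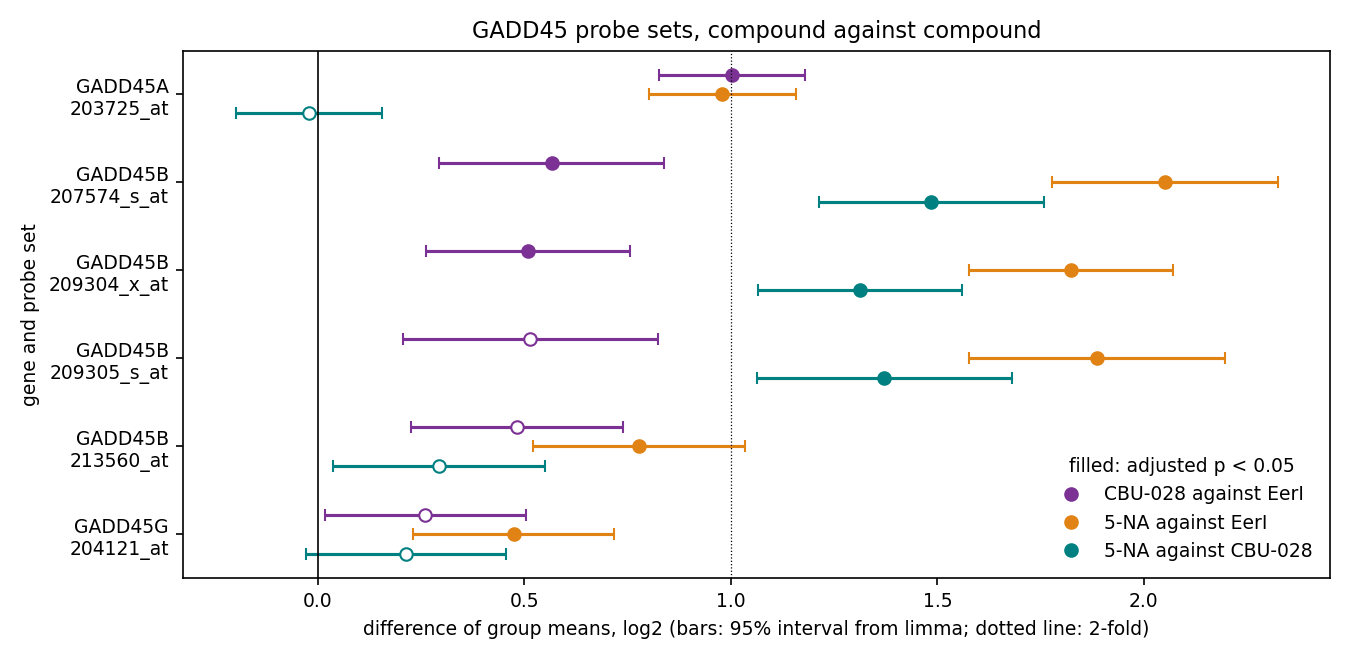
Difference between compounds (log2, horizontal axis) for each GADD45 probe set (vertical axis), with 95% intervals from limma, filled points for an adjusted p under 0.05 and a dotted line at 2-fold. The interval of GADD45A for 5-NA against CBU-028 spans 0 (-0.20 to 0.15), while those of the 3 brighter GADD45B probe sets start at 1.06 or above.

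GADD45B was also set against GADD45A array by array, as the change of GADD45B (207574_s_at) from the control mean minus that of GADD45A. This difference of changes was -0.31 and -0.21 on the EerI arrays, -0.67 and -0.73 on the CBU-028 arrays, and 1.03 and 0.59 on the 5-NA arrays. The difference from control was thus larger for GADD45A than for this GADD45B probe set with EerI and CBU-028, and smaller with 5-NA. The mean difference of changes between 5-NA and CBU-028 was 1.51, and it was 1.34 and 1.39 with the GADD45B probe sets 209304_x_at and 209305_s_at. The exact permutation test, two-sided over arrays, gave p = 0.333, the smallest that 2 arrays against 2 can give. With 213560_at the changes were smaller than those of GADD45A on all 6 treated arrays (-1.25 to -0.52), so that the turn of sign with 5-NA was not seen by this GADD45B probe set.

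To see which other transcripts followed the same course, all 19775 genes with a single symbol were ranked by their distance from GADD45A and from GADD45B, as the root mean square difference over the 8 arrays of log2 values centred on the control mean, each gene taken by its probe set of the highest mean. Nearest to GADD45A were GCLM, a subunit of the enzyme that starts glutathione synthesis (distance 0.178), the small nucleolar RNA host gene SNHG17 (0.193), PPP1R15A, the stress-induced phosphatase subunit GADD34 (0.224), ZNF473 (0.231) and THAP9-AS1 (0.281). GCLM, for example, had differences from control of 0.82, 1.36 and 1.48 with EerI, CBU-028 and 5-NA. Nearest to GADD45B were FOS, a subunit of the AP-1 transcription factor (0.294), EID3 (0.388), MAFG, a small MAF factor (0.391), PPP1R15A (0.398) and RNA45SN5, a ribosomal RNA precursor gene (0.457). FOS had differences of -0.02, 0.82 and 1.97, and RNA45SN5 of 0.07, 0.26 and 1.86. PPP1R15A was the gene found near both members. By Pearson's correlation over the 8 arrays instead, among the 299 genes whose group means span at least 1, GCLM was the gene kept among the 5 nearest to GADD45A, and none was kept for GADD45B, where TEX14, PELI1, CDKN1A, FOSL1 and RHEBL1 came first. The 8 points are 4 pairs of arrays, so these likenesses are descriptions. GADD45G was not ranked, because its group means span only 0.65.

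**Figure D4:**
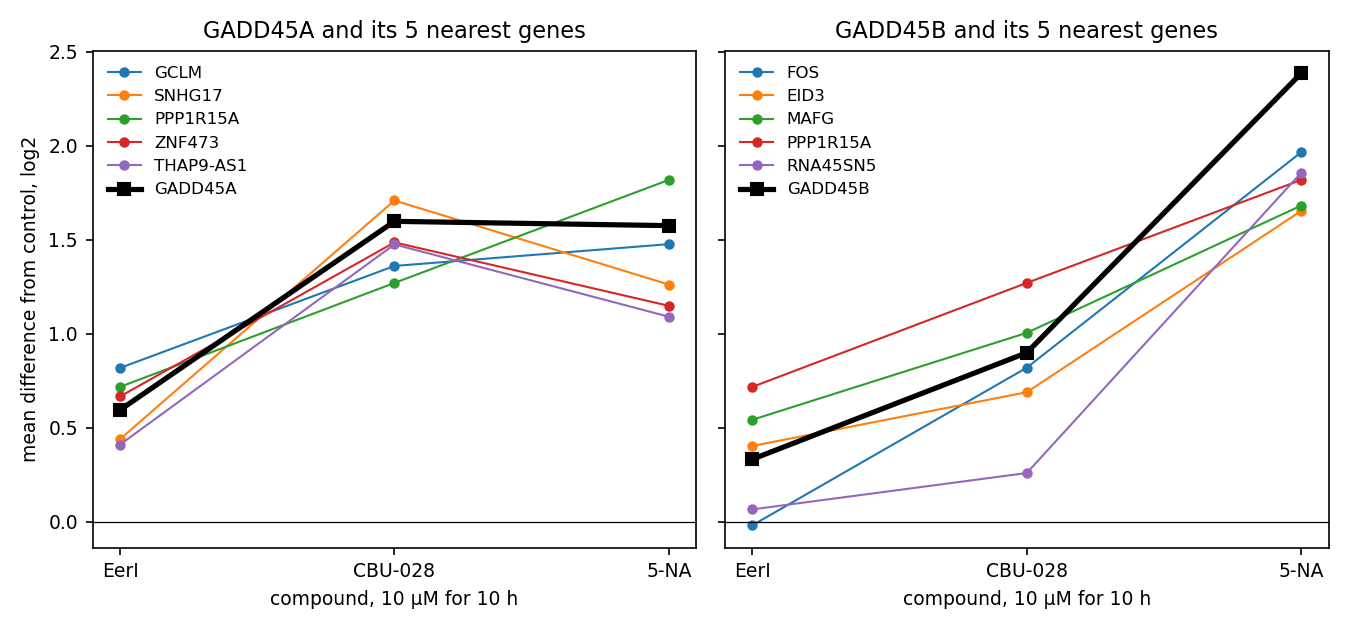
Mean difference from control (log2, vertical axis) with each compound (horizontal axis, 2 arrays each) for GADD45A, GADD45B (207574_s_at) and the 5 genes nearest to each by root mean square distance. GADD45A levels off between CBU-028 and 5-NA (1.60 and 1.58), with SNHG17, ZNF473 and THAP9-AS1 highest with CBU-028 and GCLM and PPP1R15A with 5-NA, whereas GADD45B and its 5 neighbours are highest with 5-NA (2.38 for GADD45B).

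The genes around the family were taken from lists of its known surroundings, each gene by its probe set of the highest mean. Beside their counts, 0.17%, 5.27% and 7.9% of all probe sets were lower than control with EerI, CBU-028 and 5-NA, and the shares of higher ones are those given above. The other genes named for growth arrest and DNA damage were DDIT3 (GADD153, the transcription factor CHOP), PPP1R15A (GADD34) and DDIT4 (REDD1, an inhibitor of mTORC1). All 3 were higher with each compound, and DDIT3 and DDIT4 ran in other orders than the GADD45 genes. DDIT3 was at 8.50 and 8.49 in control cells, 10.27 and 10.37 with EerI, 10.94 and 10.77 with CBU-028, and 10.16 and 9.92 with 5-NA. It was thus highest with CBU-028, and lower with 5-NA than with CBU-028 (adjusted p under 0.05 in limma), a comparison in which GADD45A was at -0.02. DDIT4 rose by 2.47 with EerI, 2.47 with CBU-028 and 1.15 with 5-NA. PPP1R15A rose by 0.72, 1.27 and 1.82, the order seen for GADD45B. With EerI, 2 of the 3 were called without 1 of the control or EerI arrays, and 1 of the 3 by the methods' ANOVA with adjusted p.

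Among the protein partners of GADD45, 11 of 12 listed were measured, and few changed. With EerI none was called (0 higher, 4 lower by limma's unadjusted p under 0.05), and with CBU-028 and 5-NA 1 was higher and 2 lower in each case. CDKN1A, the cell cycle inhibitor p21, had log2 values of 10.04 and 10.06 in control cells, 10.15 and 10.13 with EerI, 10.39 and 10.45 with CBU-028, and 11.38 and 11.13 with 5-NA. Like GADD45B it was highest with 5-NA, rising by 1.21 (SE 0.0949, adjusted p = 0.000205 from limma) and by 0.37 with CBU-028 (adjusted p = 0.04 from limma), a call that was lost without any 1 of the control, EerI or CBU-028 arrays. CCNB1, the cyclin B1 of the mitotic kinase, fell by 0.82 with CBU-028 and by 0.57 with 5-NA, and AURKA, a mitotic kinase, fell by 0.81 and 0.54. The kinase MAP3K4 was at -0.04, 0.17 and 0.21 with EerI, CBU-028 and 5-NA, and PCNA at -0.14, -0.10 and 0.06, none of them called. The median of the list was -0.11, -0.10 and 0.06 with the 3 compounds.

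Of 9 genes of G2/M entry, none was called with EerI (0 higher, 1 lower by limma's unadjusted p under 0.05), 3 were lower with CBU-028, and 3 were lower and 1 higher with 5-NA. CCNB1 was one of them. PLK1, a mitotic kinase, fell by 0.84 with CBU-028 and 0.53 with 5-NA, and CDC25B, a phosphatase that activates CDK1, by 0.42 and 0.44. CDC25A, a phosphatase of the same family, rose by 0.78 with 5-NA. CDK1 itself was at -0.04, -0.15 and -0.07. Without control replicate 2, 1 gene was lower with each of CBU-028 and 5-NA, and so with 5-NA without 5-NA replicate 2.

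Of 9 measured genes of the p38 and JNK cascade (12 listed), none was called with EerI (1 higher, 2 lower by limma's unadjusted p under 0.05), 1 was lower with CBU-028, and 3 were lower and 1 higher with 5-NA. MAP2K6, an activator of p38, was at 10.03 and 10.06 in control cells and at 9.65 and 9.66 with EerI. It was at 9.30 and 9.10 with CBU-028 and at 9.02 and 8.83 with 5-NA, where it fell by 1.12 (SE 0.0979, adjusted p = 0.000292 from limma). The p38 genes MAPK12 and MAPK13 fell by 0.49 and 0.42 with 5-NA, and the JNK gene MAPK8 rose by 0.30. The p38 gene MAPK14 is not among the 9, and only genes with a probe set of a single gene symbol counted as measured. The MAPK8 call was lost with each array centred on its median and without any 1 of the control, EerI or 5-NA arrays, and 1 of the 3 falls was called without control replicate 1.

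Of 11 measured transcription factors known to act on GADD45 genes (13 listed), 1 was higher with EerI, 4 were higher and 1 lower with CBU-028, and 3 were higher with 5-NA. ATF4, the factor of the integrated stress response, rose by 0.78 with EerI, 0.64 with CBU-028 and 0.48 with 5-NA, and its call with EerI was lost when 1 control or EerI array was omitted. EGR1, an immediate early factor, had log2 values of 6.76 and 6.54 in control cells, 6.67 and 6.77 with EerI, 6.98 and 6.88 with CBU-028, and 8.50 and 7.61 with 5-NA. It rose with 5-NA, by 1.40 (SE 0.23, adjusted p = 0.00424 from limma), and as with the 3 brighter GADD45B probe sets the first 5-NA array was the higher one. ZNF350, a zinc finger repressor that acts on GADD45A, rose by 0.51 with CBU-028 and 0.85 with 5-NA, and SMAD3, a mediator of TGF-beta signals, fell by 0.57 with CBU-028, a call that was lost without either control array and by the methods' ANOVA with adjusted p. The remaining 2 called with CBU-028, BRCA1 (0.47) and FOXO3 (0.33), are named after their values were seen. Without either control array or CBU-028 replicate 1, 1 factor was higher with CBU-028.

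Of 5 measured genes of active DNA demethylation (6 listed), a process in which GADD45 proteins have been described as adaptors, none was called with EerI (0 higher, 1 lower by limma's unadjusted p under 0.05) or with CBU-028 (1 higher and 2 lower). With 5-NA the glycosylase gene MBD4 rose by 0.46, and the dioxygenase genes TET1 and TET2 fell by 0.42 and 0.38. None of these 3 genes was called once either control array or the first 5-NA array was left out.

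**Figure D5:**
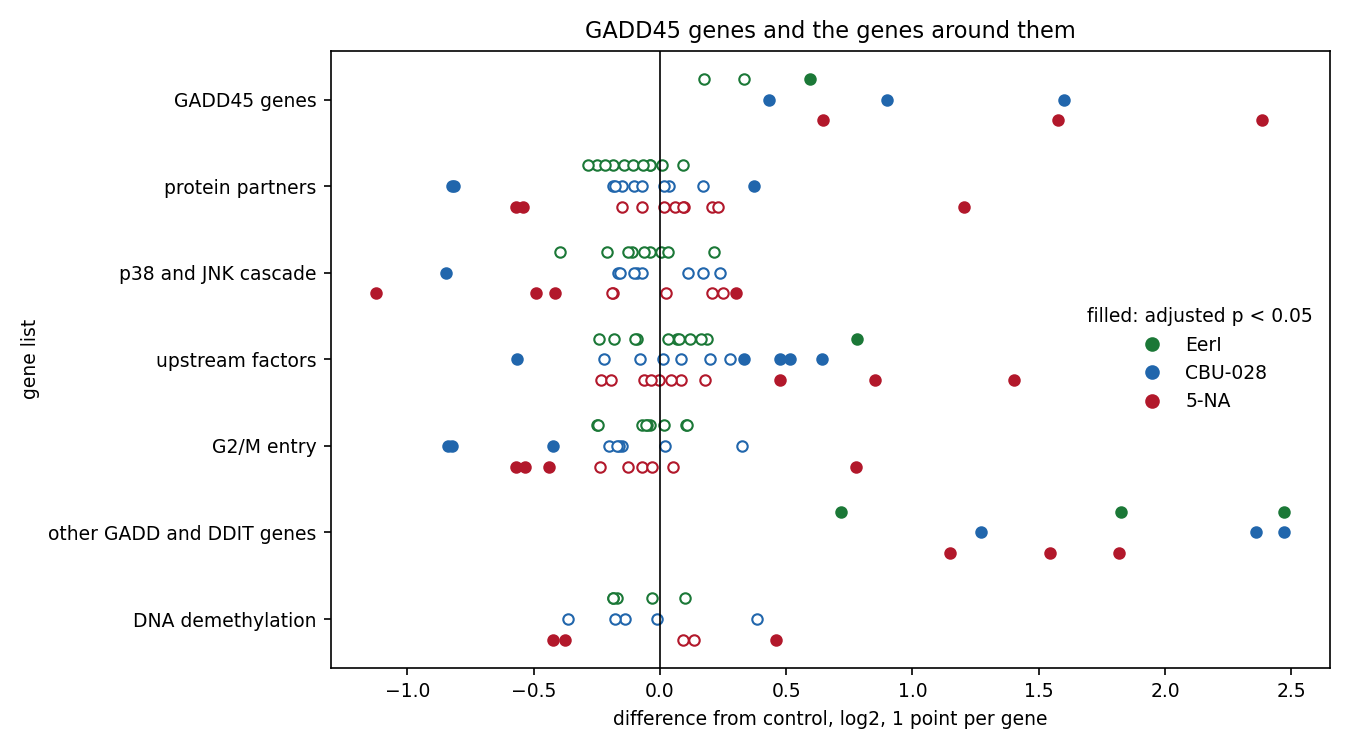
Difference from control (log2, horizontal axis) of each gene in the GADD45 family and 6 gene lists around it (vertical axis) with EerI, CBU-028 and 5-NA, with a point per gene and filled points for an adjusted p under 0.05 in limma. The GADD45 genes and the 3 other GADD and DDIT genes lie above 0 with all compounds, while in the remaining lists most points are near 0, with MAP2K6 at -1.12 and EGR1 at 1.40 with 5-NA at the ends.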

How the data were processed

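The log2 values were deposited by the authors, who processed the Affymetrix arrays by RMA (background correction, quantile normalization and summary per probe set), and the submitters' processing notes name Partek, without versions. The signal of the arrays was not read again here. RMA shares one scale among all 8 arrays, so a change in total RNA would not be seen. The identifiers are those of HG-U133 Plus 2.0, whereas the methods name a smaller array. Of the probe sets, 41097 had 1 gene symbol in the platform annotation, 1801 several and 11777 none.

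Differences between groups were tested with limma 3.58.1 in R 4.3.3, in one fit over all 8 arrays, with Benjamini-Hochberg adjustment over all 54675 probe sets. The scripts were tested on simulated data. Per the methods, treatments were done in duplicate, and a table legend of the study speaks of a biological replicate. The labels do not tie the arrays to cultures, so p-values measure the spread between these samples. The members and gene lists were chosen with earlier results of these data known. All members were named, with up to 4 called genes per list by size of change and the 5 nearest genes for likeness. The sequences are from RefSeq (GRCh38.p14). The alternatives were other normalizations, filters, folds, models and the omission of single arrays.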

Additional observations from a re-analysis of the deposited data

How the results depend on the processing

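For the 6 GADD45 probe sets in 6 comparisons, 22 alternative settings gave 786 values in all, of which 702 kept their direction and side of the threshold, 71 lost the call, 10 gained one and 3 turned direction. The turned values were all of GADD45A for 5-NA against CBU-028, at 0.003494 with renewed quantile normalization, 0.0277 without CBU-028 replicate 2 and 0.0028 without 5-NA replicate 1, within a range of -0.0733 to 0.0277 with single arrays left out. The count of called probe sets was least stable for CBU-028 against EerI (3), where it was 1 with array weights, 0 with the compared groups alone, 1 with a fold of at least 1.5, 1 with a fold of at least 2, 1 by the methods' ANOVA with adjusted p and 5 with unadjusted p, 5 among probe sets with a mean of at least 7, 5 with a trend in the prior variance, and 0 to 4 with single arrays left out. With a replicate block it was 1, and no other count moved past 1.5 times with the block. The replicate numbers share no origin in the labels and did not pair the samples, with correlations of their deviations of -0.146 to 0.146. With the EerI numbers crossed it was 2. For CBU-028 against control (6) the count was 1 with a fold of at least 2, 1 by the ANOVA with adjusted p and 3 to 5 with single arrays left out. For EerI against control (1) it was 0 with a fold of at least 2, 0 by the ANOVA with adjusted p and 0 to 1 with single arrays left out. For 5-NA against EerI (6) it was 3 with a fold of at least 2 and 5 to 6 with single arrays left out, and for 5-NA against CBU-028 (3) 3 to 4. By the ANOVA with adjusted p, several gene lists had fewer calls against control, with 0 in place of 1 higher for EerI, 2 in place of 4 higher for CBU-028 and 2 in place of 3 higher for 5-NA among transcription factors, 1 in place of 3 lower for CBU-028 and for 5-NA in G2/M entry, 0 in place of 1 higher for CBU-028 among partners, 0 in place of 1 higher for 5-NA in the p38 and JNK cascade, and 0 in place of 3 for 5-NA in DNA demethylation. Without the probe set 209304_x_at the counts fell by at most 1. The cause of these shifts was not tested. With 2 arrays per group, their number limits the precision.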
